A study of Tachysurus vachellii and Tachysurus fulvidraco x Tachysurus vachelli and Tachysurus fulvidraco with 9 samples.

Results

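The liver transcriptome of the catfish hybrid Huangyou-1 was set against that of its paternal species, the darkbarbel catfish Pelteobagrus vachelli. The hybrid comes from eggs of the yellow catfish P. fulvidraco and sperm of P. vachelli, so P. vachelli is the species that gave its father. The comparison used 6 of the 9 libraries of the series, 3 from hybrid juveniles and 3 from P. vachelli juveniles, and the other 3, from P. fulvidraco juveniles, entered the shared estimate of spread. Per the labels, all lines came from hand-stripped eggs and sperm after hormone injection. They hatched at the same water temperature, ate Artemia and then the same kind of compound feed, and each line was reared in 3 aquaria of its own at the same density. Line and rearing aquaria thus cannot be told apart in any difference below. No label tells if a library came from 1 fish or from several pooled, so p-values cover only the variation among these libraries, which may be technical. The tissue label is liver, while the extraction protocol speaks of an adipose type, and the levels of liver genes are given further down.

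The liver makes most plasma proteins, stores and releases glucose, builds and burns fat, turns amino acids into other compounds and modifies foreign chemicals for excretion. A hybrid between species carries a gene copy from each parent at every nuclear locus, but its mitochondrial genome comes from the mother, here P. fulvidraco. Crosses of this kind are kept in aquaculture for traits such as fast growth. The comparison with the paternal species addresses which liver transcripts of the hybrid differ from those of the father's line.

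The values are in TPM, for genes assembled from the reads without a genome. A TPM value is the share of a library's transcripts that a gene takes, after correction for its length. The deposited table held 57710 such rows, and 51225 reached 1 TPM in at least 3 of the 9 libraries and were tested. Of the tested rows, 16155 carried a gene symbol, which made 10775 symbols once rows of the same symbol were summed, and 3335 symbols had more than 1 row. Unless rows are mentioned, a level is the summed TPM of a symbol, always given in the order hybrid 1, 2 and 3 and P. vachelli 1, 2 and 3. A log2 difference is hybrid minus P. vachelli on the log2(TPM + 1) scale, which understates the change of low genes, and ± after it is its standard error. A gene was called higher or lower where the two-sided limma test gave a Benjamini-Hochberg adjusted p below 0.05 over all symbols or all rows. After a level, ± is the SD over n = 3 libraries.

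Replicates were more alike than the lines. Over the symbols, Pearson correlations across genes were 0.967 to 0.973 among hybrid libraries, 0.978 to 0.981 among P. vachelli libraries, and 0.915 to 0.920 between hybrid and P. vachelli libraries. Genes are not independent replicates, so these values only describe the libraries. Between 36764 and 41016 rows reached 1 TPM in the 6 libraries, with the highest number in hybrid 3. How deeply each library was read cannot be seen from TPM. The liver label was met by liver genes: summed over 23 hepatocyte markers, the level was 88522 to 94661 TPM in hybrid livers and 62344 to 67935 TPM in P. vachelli livers. HPX and TF, both among these markers and given further down, made up most of the gap between the sums. Of the 23 markers, 13 were called higher (56.5%) and 4 lower (17.4%) in the hybrid, against 13.6% and 17.0% over all symbols. In bulk tissue, more or fewer cells of a type and more or less RNA per cell cannot be told apart.

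Of the 10775 symbols, 3289 differed between hybrid and P. vachelli, which is 30.5%. Higher in the hybrid were 1461 (13.6%) and lower 1828 (17.0%), and the median log2 difference over all symbols was -0.05. The 3 hybrid libraries and the 3 P. vachelli libraries did not overlap for 3248 of the called symbols, 13.4% of all symbols being called higher without overlap and 16.8% lower without overlap. Lack of overlap thus went with nearly every call, and adds little to a call where it is given below. The lean of the count toward lower was not stable. Leaving out hybrid 1 gave 1280 higher and 1276 lower, and leaving out hybrid 3 gave 1193 and 1881. With median-ratio scaling, 1664 were higher and 1656 lower. Large differences leaned the other way from the count with all libraries: 556 symbols were higher by at least 1 on the log2 scale and 390 lower by at least that much. Beyond 2 on the log2 scale lay 131 higher and 33 lower symbols. The median size of a called log2 difference was 0.74.

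At the level of single rows, 15388 of 51225 were called, or 30.0%, with 7928 higher (15.5%) and 7460 lower (14.6%). Many of these rows held no signal in one line. Among rows called higher, 3015 were listed at 0 in all 3 P. vachelli libraries, while among rows called lower 269 were listed at 0 in all 3 hybrid libraries. After summing by symbol, 39 of the higher and 5 of the lower symbols were of this kind. A mean under 1 TPM in the other line was less one-sided. It was found for 5506 of the rows called higher and 2900 of the rows called lower, and for 296 and 124 symbols. Where both lines had a mean of at least 5 TPM, 669 of 5245 symbols were higher and 1153 lower. The shares over all symbols were 13.6% higher and 17.0% lower. The assembly can split a gene into a row for each species' form, and how far this shapes a difference was not tested except by summing rows, as given beside the genes it touches.

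**Figure D1:**
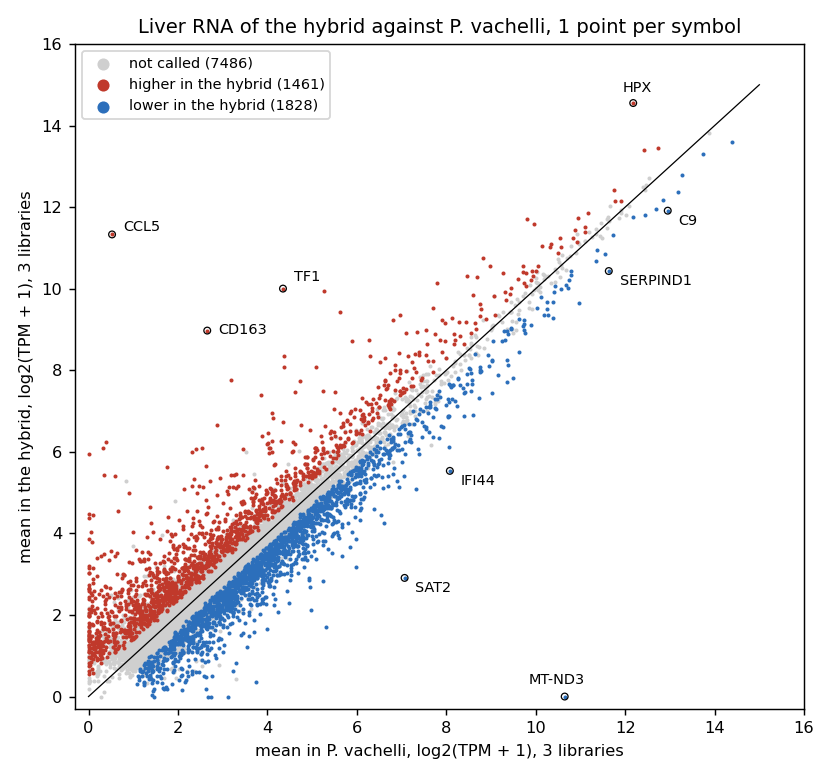
Each point is a symbol, with its mean log2(TPM + 1) in P. vachelli on the horizontal axis and in the hybrid on the vertical axis, over 3 libraries each. Colours mark the 1461 symbols called higher and the 1828 called lower in the hybrid, and the named points include HPX far above the diagonal at high level and MT-ND3 on the floor of the hybrid axis.

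Among symbols with a mean of at least 5 TPM in both lines, the greatest rises in the hybrid were those of a scavenger receptor, a transferrin and a chemokine. CD163, described in the table as a scavenger receptor of the cysteine-rich family and known in mammals as the macrophage receptor for haemoglobin bound to haptoglobin, had 568, 374 and 562 TPM in hybrid livers, against 4.87, 4.94 and 6.08 TPM in P. vachelli livers. The lowest hybrid library stood far above the highest P. vachelli library (log2 difference 6.30 ± 0.16, limma adjusted p = 8.4e-08). DMBT1, whose most abundant row carried a description of the same receptor family, had 344, 288 and 338 TPM in hybrid livers, against 20.2, 16.9 and 21.8 TPM in P. vachelli livers and also rose (log2 difference 3.98 ± 0.11, limma adjusted p = 8.93e-08).

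TF1, a second transferrin symbol beside TF, had 1074, 1177 and 823 TPM in hybrid livers, against 20.4, 18.4 and 19.3 TPM in P. vachelli livers (log2 difference 5.64 ± 0.19, limma adjusted p = 2.61e-07). The levels were close within each line and far apart between them. CCL3, an inflammatory chemokine that attracts leukocytes, reached 1136, 1277 and 563 TPM in hybrid livers, against 29.4, 37.9 and 44.5 TPM in P. vachelli livers (log2 difference 4.63 ± 0.28, limma adjusted p = 1.08e-05). Hybrid 3 was the lowest of the hybrid libraries for CCL3 and still well above every P. vachelli library.

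Enzymes of very different pathways stood beside them. CYP2C8, a cytochrome P450 of drug and fatty acid oxidation, had 262, 244 and 309 TPM in hybrid livers, against 23.1, 22 and 13.7 TPM in P. vachelli livers (log2 difference 3.75 ± 0.19, limma adjusted p = 3.9e-06). ARG1, the arginase that splits arginine into urea and ornithine, had 228, 217 and 189.6 TPM in hybrid livers, against 28.7, 25 and 22.6 TPM in P. vachelli livers (log2 difference 3.01 ± 0.20, limma adjusted p = 2.39e-05). HNMT, which methylates and so inactivates histamine, had 57.3, 38.8 and 52.9 TPM in hybrid livers, against 6.63, 4.33 and 4.53 TPM in P. vachelli livers (log2 difference 3.04 ± 0.26, limma adjusted p = 9.05e-05). None of these groups overlapped, which was a condition for naming the largest rises. GALNT11, which starts O-linked sugar chains on proteins, had levels of 168 ± 9.51 TPM in hybrid livers, against 13.5 ± 0.217 TPM in P. vachelli livers (log2 difference 3.54 ± 0.10, limma adjusted p = 8.93e-08), and MP68, a small mitochondrial proteolipid, had levels of 216 ± 24.2 TPM in hybrid livers, against 8.14 ± 0.575 TPM in P. vachelli livers (log2 difference 4.56 ± 0.12, limma adjusted p = 8.4e-08). MUG1, described as a protein like the protease inhibitor alpha-2-macroglobulin, rose to 99.9 ± 20.6 TPM in hybrid livers, against 6.33 ± 1.21 TPM in P. vachelli livers (log2 difference 3.77 ± 0.26, limma adjusted p = 2.78e-05). CYP27B1, which makes active vitamin D in mammals, was less even: it had 99.9, 27.4 and 71.6 TPM in hybrid livers, against 4.25, 1.98 and 23.6 TPM in P. vachelli livers (log2 difference 3.03 ± 0.72, limma adjusted p = 0.0128), and the lowest hybrid library lay just above the highest P. vachelli library.

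Among symbols with a mean of at least 5 TPM in both lines, the falls reached less far than the rises. SAT2, named for a diamine acetyltransferase, had 6.71, 6.66 and 6.16 TPM in hybrid livers, against 266, 90.5 and 43.3 TPM in P. vachelli livers (log2 difference -3.77 ± 0.55, limma adjusted p = 0.00125). It was even in the hybrid and spread widely in P. vachelli, where library 1 was the highest. The fall of SAT2 came from 1 row, with 0.03, 0.22 and 0.11 TPM in hybrid livers and 257, 85.1 and 37.5 TPM in P. vachelli livers. That row was listed at 0 in every P. fulvidraco library and passed the filter through the P. vachelli libraries alone. Its direction was thus fixed in advance, and the adjusted p of SAT2 adds no support for the fall. SLC6A2, described as the noradrenaline transporter, had 6.01, 4.7 and 7.64 TPM in hybrid livers, against 34.4, 30.3 and 46.6 TPM in P. vachelli livers (log2 difference -2.42 ± 0.20, limma adjusted p = 6.69e-05). NRXN2, a neurexin of synaptic contacts, had 36.5, 33.2 and 29.5 TPM in hybrid livers, against 165, 145 and 170.1 TPM in P. vachelli livers (log2 difference -2.24 ± 0.32, limma adjusted p = 0.00116).

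Among the other falls were 3 genes of mitochondrial proteins. SSBP1, which binds single-stranded mitochondrial DNA during its copying, had 9.75, 9.94 and 9.98 TPM in hybrid livers, against 45, 43.6 and 61 TPM in P. vachelli livers (log2 difference -2.21 ± 0.16, limma adjusted p = 4.11e-05). COQ4, needed for making ubiquinone, had 13.5, 13.8 and 13.1 TPM in hybrid livers, against 62.8, 50.9 and 71.9 TPM in P. vachelli livers (log2 difference -2.11 ± 0.12, limma adjusted p = 9.89e-06). ADHFE1, a mitochondrial transhydrogenase that clears gamma-hydroxybutyrate, had 2.87, 5.72 and 7.68 TPM in hybrid livers, against 19.7, 34.4 and 35.9 TPM in P. vachelli livers (log2 difference -2.30 ± 0.31, limma adjusted p = 0.000789). Hybrid and P. vachelli libraries did not overlap for any of the 3 genes, which was a condition for naming the largest falls. NVL, an ATPase of ribosome assembly, fell to 18.1 ± 1.68 TPM in hybrid livers, against 96.2 ± 29.6 TPM in P. vachelli livers (log2 difference -2.30 ± 0.23, limma adjusted p = 0.000184). APMAP, described as the adipocyte plasma membrane-associated protein, stood at 20.9 ± 3.95 TPM in hybrid livers, against 91.7 ± 4.88 TPM in P. vachelli livers (log2 difference -2.09 ± 0.14, limma adjusted p = 2.39e-05), CORO2A, an actin-binding coronin, at 6.24 ± 1.08 TPM in hybrid livers, against 29.6 ± 2.24 TPM in P. vachelli livers (log2 difference -2.09 ± 0.21, limma adjusted p = 0.000204), and PRG4, the lubricating proteoglycan, at 11.8 ± 3.38 TPM in hybrid livers, against 56.7 ± 27.8 TPM in P. vachelli livers (log2 difference -2.08 ± 0.38, limma adjusted p = 0.00369).

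**Figure D2:**
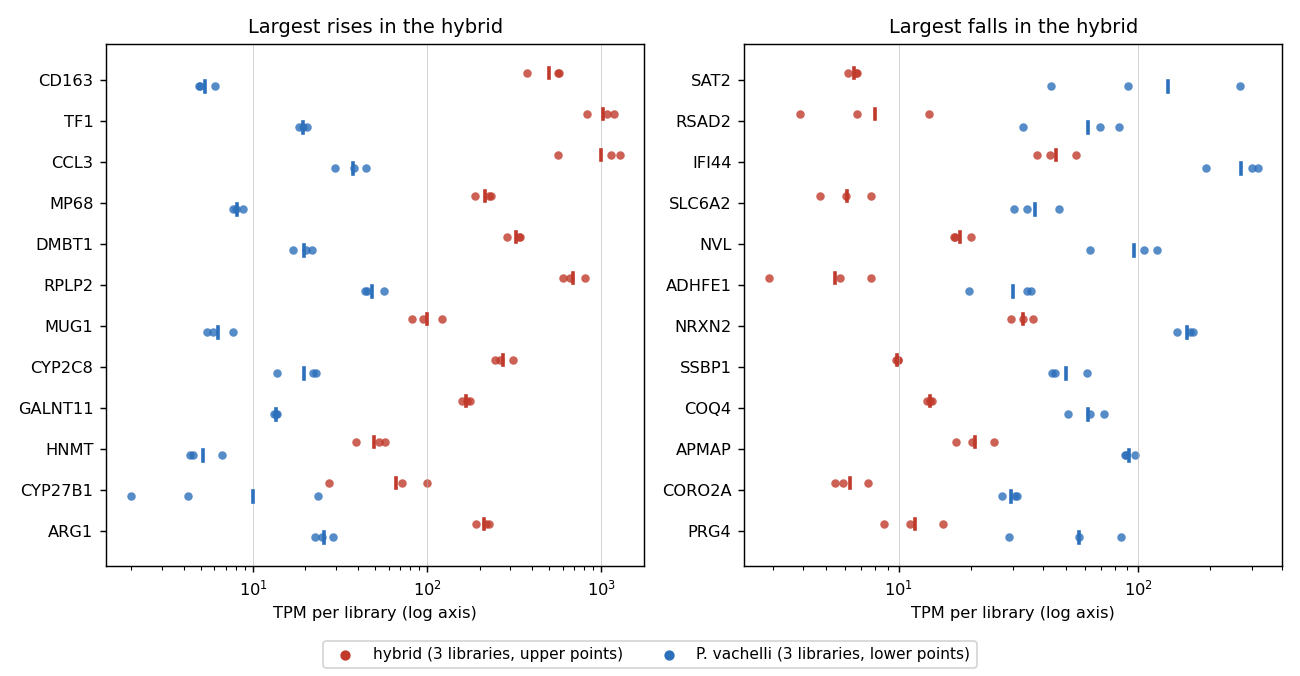
TPM per library, on a log axis, of the 12 largest rises and the 12 largest falls among symbols with a mean of at least 5 TPM in both lines whose groups did not overlap. For each gene, hybrid points are drawn just above P. vachelli points. CD163 shows the widest gap, with 374 to 568 TPM in hybrid livers and 4.87 to 6.08 TPM in P. vachelli livers. The fall of SAT2 rests on a row that passed the filter through the P. vachelli libraries alone.

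Some symbols were abundant in one line and near 0 in the other. CCL5, a chemokine symbol, has its row described as small inducible cytokine A3, which is a name of CCL3. It had 2883, 2936 and 1904 TPM in hybrid livers, against 1.2, 0.12 and 0 TPM in P. vachelli livers. Its P. fulvidraco libraries stood at 4728 ± 362 TPM. CCL3 and CCL5 belong to one chemokine family, and how reads of such relatives were divided is not given in the sources used here. Whether the symbols CCL3 and CCL5 stand for separate genes here was not tested. SULT1D1, a cytosolic sulfotransferase that adds sulfate to small molecules, had 41, 89.3 and 52.7 TPM in the hybrid and was listed at 0 in all 3 P. vachelli libraries. SULT1C3, described as another cytosolic sulfotransferase, had 89.6, 98.6 and 37 TPM in hybrid livers, against 0.02, 0.91 and 0 TPM in P. vachelli livers. CPI17, an inhibitor of myosin phosphatase, had 43, 39.6 and 43.1 TPM in hybrid livers, against 0.24, 0.23 and 0.32 TPM in P. vachelli livers, and PABPC1-A, a protein that binds poly(A) tails, had 45.3, 40.2 and 37.8 TPM in hybrid livers, against 1.5, 0 and 0 TPM in P. vachelli livers. SSC5D, whose row is described as like the lymphocyte antigen CD6, had 107, 91.9 and 1.99 TPM in hybrid livers, against 0.75, 0 and 0 TPM in P. vachelli livers (log2 difference 4.69 ± 1.19, limma adjusted p = 0.0172). Hybrid 3 was far below the other hybrid libraries, and the call was lost leaving out hybrid 1 (limma adjusted p = 0.0589), hybrid 2 (0.0575), P. vachelli 2 (0.0515) or P. vachelli 3 (0.0549).

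Most of these transcripts were also present in the P. fulvidraco libraries, whose means were 29.1 ± 2.33 TPM for SULT1D1, 144 ± 50.9 TPM for SULT1C3, 84.8 ± 16.8 TPM for CPI17 and 104 ± 10.1 TPM for PABPC1-A.

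The converse set was of lower level apart from a mitochondrial gene. MT-ND3, a complex I subunit encoded in mitochondrial DNA, was listed at 0 in all 3 hybrid libraries and had 1564, 1638 and 1608 TPM in P. vachelli. The symbol rests on 1 row, which was also listed at 0 in all 3 P. fulvidraco libraries. GRHL2, a transcription factor of epithelia, was also listed at 0 in the hybrid and had 13.8, 3.71 and 5.63 TPM in P. vachelli. SYCP2, a protein of the meiotic chromosome axis, had 0.24, 0.41 and 0.21 TPM in hybrid livers, against 16.6, 9.41 and 10.9 TPM in P. vachelli livers (log2 difference -3.34 ± 0.29, limma adjusted p = 8.82e-05). TH, described as the enzyme that starts catecholamine synthesis, had 0.99, 0.33 and 1.01 TPM in hybrid livers, against 8.08, 8.06 and 10.2 TPM in P. vachelli livers (log2 difference -2.48 ± 0.28, limma adjusted p = 0.000341). TMEFF2, a membrane protein with follistatin-like domains, had 0.41, 0.54 and 0.68 TPM in hybrid livers, against 6.84, 7.15 and 11.1 TPM in P. vachelli livers (log2 difference -2.58 ± 0.20, limma adjusted p = 5.16e-05), G2E3, a ubiquitin ligase, had 0.68, 1.24 and 0.84 TPM in hybrid livers, against 5.98, 5.12 and 7.7 TPM in P. vachelli livers (log2 difference -1.92 ± 0.17, limma adjusted p = 0.000116), and FOXM1, a transcription factor of dividing cells, had 0.13, 0.28 and 0.42 TPM in hybrid livers, against 3.97, 3.91 and 2.58 TPM in P. vachelli livers (log2 difference -1.80 ± 0.17, limma adjusted p = 0.000123). For SYCP2, TH, TMEFF2, G2E3 and FOXM1, every hybrid library lay below every P. vachelli library. A call, lack of overlap and a hybrid mean under 1 TPM were conditions for the 6 symbols named by rank. Their adjusted p and lack of overlap thus add no support. FOXM1 was named outside this ranking.

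**Figure D3:**
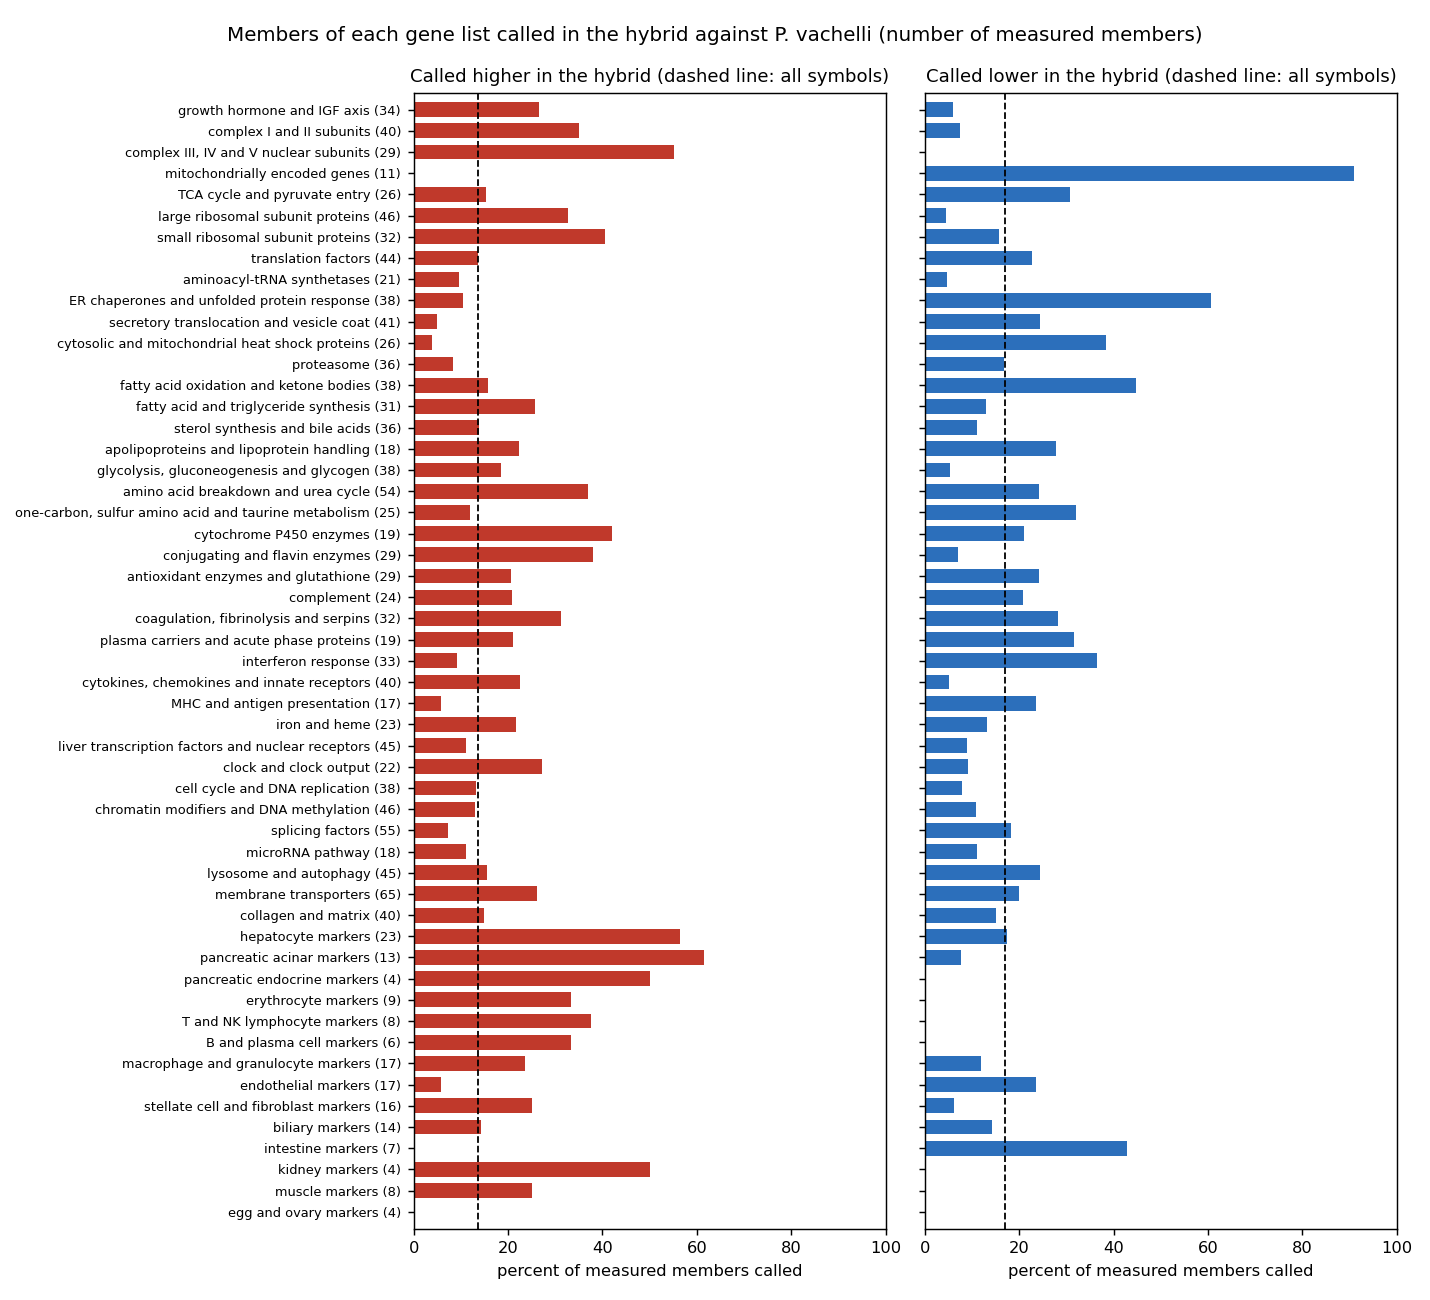
For each gene list, the share of measured members called higher (left panel) and lower (right panel) in the hybrid, in percent, with dashed lines at 13.6% and 17.0%, the shares over all symbols. The nuclear subunits of complexes III to V reach 55.2% in the higher panel, and mitochondrially encoded genes and endoplasmic reticulum chaperones reach far past the line in the lower panel.

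Gene lists give the differences by function. They are described here by how many members were called in each direction, to be read against 13.6% higher and 17.0% lower over all symbols, and by the median log2 difference of their measured members, against -0.05 over all symbols. Leaving out 1 library gave 1053 to 1280 symbols higher over all symbols, against 1461 with all libraries. It gave 1221 to 1881 lower, against 1828. List counts with a library left out are to be read beside these. The lists and their members were chosen with earlier results of these data known, so the counts carry no test.

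Energy metabolism opens the account. The respiratory chain of mitochondria moves electrons through complexes I to IV, and complex V, the ATP synthase, uses the resulting proton gradient. Most subunits are encoded in the nucleus and a few in mitochondrial DNA. For the nuclear subunits of complexes III to V, 16 of 29 measured members were higher in the hybrid (55.2%) and 0 lower (0%), with a median log2 difference of 0.41. ATP5J2 and ATP5I, membrane subunits of the ATP synthase, rose together: ATP5J2 had 255, 249 and 267 TPM in hybrid livers, against 120.5, 105 and 119 TPM in P. vachelli livers (log2 difference 1.15 ± 0.09, limma adjusted p = 5.19e-05), and ATP5I had 233, 217 and 191 TPM in hybrid livers, against 105, 91.2 and 97.5 TPM in P. vachelli livers (log2 difference 1.12 ± 0.10, limma adjusted p = 8.75e-05). The hybrid had more than its father's line in every library. COX5B, a subunit of cytochrome c oxidase, had 216, 211 and 172 TPM in hybrid livers, against 98.5, 110 and 100 TPM in P. vachelli livers (log2 difference 0.94 ± 0.10, limma adjusted p = 0.000271). In complexes I and II, 14 of 40 measured members were higher in the hybrid (35%) and 3 lower (7.5%), with a median log2 difference of 0.25. The number higher was 8 leaving out P. vachelli 2. NDUFA2, an accessory subunit of complex I, had 111, 105 and 101 TPM in hybrid livers, against 20.6, 18.8 and 18.4 TPM in P. vachelli livers (log2 difference 2.40 ± 0.08, limma adjusted p = 3.68e-07).

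Genes encoded in mitochondrial DNA ran opposite. Among them 0 of 11 measured members were higher in the hybrid (0%) and 10 lower (90.9%), with a median log2 difference of -0.75. The 10 include MT-ND3, whose only row passed the filter through the P. vachelli libraries alone. Its direction was thus fixed in advance, and it is no support for the fall. MT-CO2, a catalytic subunit of cytochrome c oxidase, had 12134, 12186 and 12532 TPM in hybrid livers, against 21726, 20079 and 22636 TPM in P. vachelli livers (log2 difference -0.80 ± 0.08, limma adjusted p = 0.000129). MT-ATP6, the proton channel subunit of the ATP synthase, had 3929, 3853 and 4030.5 TPM in hybrid livers, against 6651, 6385 and 6856 TPM in P. vachelli livers (log2 difference -0.75 ± 0.07, limma adjusted p = 9.63e-05), and MT-CO1, the main subunit of cytochrome c oxidase, had 10121, 9946 and 9983 TPM in hybrid livers, against 14006, 12964 and 13807 TPM in P. vachelli livers (log2 difference -0.44 ± 0.07, limma adjusted p = 0.00159). All hybrid libraries lay below all P. vachelli libraries for these genes. MT-CYB of complex III stood at 1981 ± 58.1 TPM in hybrid livers, against 2628 ± 205 TPM in P. vachelli livers (log2 difference -0.40 ± 0.07, limma adjusted p = 0.00375), and MT-ND2 of complex I at 1028 ± 41.8 TPM in hybrid livers, against 1689 ± 109 TPM in P. vachelli livers (log2 difference -0.71 ± 0.07, limma adjusted p = 0.00023).

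The assembly held a row for each species' form of some mitochondrial genes. The MT-ND2 row described for P. vachelli had 0, 0.11 and 0 TPM in hybrid livers, against 1775, 1567 and 1725 TPM in P. vachelli livers, and a mean of 0.0167 TPM in P. fulvidraco. The row described for P. fulvidraco had 1075, 1016 and 994 TPM in hybrid livers and 0.07, 0 and 0 TPM in P. vachelli livers, so the hybrid held the form of its mother's species. Summed over both forms, MT-CO2 stood at 12212 ± 869 TPM in P. fulvidraco. MT-ND3, counted among the genes called lower, had no row with signal in P. fulvidraco, so no form of the mother's species entered its sum. The sums over forms are the basis of the fall, and with only the most abundant row of each symbol, the differences of MT-CO2, MT-CYB, MT-ND2 and MT-ATP6 turned round by construction, since that row is a form of 1 species.

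In the citric acid cycle and the entry of pyruvate into it, 4 of 26 measured members were higher in the hybrid (15.4%) and 8 lower (30.8%), with a median log2 difference of -0.10. The number higher was 2 leaving out hybrid 3, 2 leaving out P. vachelli 1 and 2 leaving out P. vachelli 3, and the number lower was 5 leaving out hybrid 1, 5 leaving out hybrid 2 and 5 leaving out P. vachelli 3. Both subunits of the mitochondrial pyruvate carrier fell: MPC1 had 148, 166 and 151 TPM in hybrid livers, against 247, 242 and 295 TPM in P. vachelli livers (log2 difference -0.75 ± 0.10, limma adjusted p = 0.000632), and MPC2 had 94.9, 87.6 and 84.2 TPM in hybrid livers, against 146, 129 and 155 TPM in P. vachelli livers (log2 difference -0.68 ± 0.09, limma adjusted p = 0.000751). SUCLG1, a subunit of succinyl-CoA ligase, had 36.3, 39.8 and 39.2 TPM in hybrid livers, against 72.6, 70.4 and 70.2 TPM in P. vachelli livers (log2 difference -0.87 ± 0.08, limma adjusted p = 9.73e-05). MDH1, the cytosolic malate dehydrogenase, had 489.5, 546 and 420.3 TPM in hybrid livers, against 866, 844 and 885 TPM in P. vachelli livers (log2 difference -0.84 ± 0.10, limma adjusted p = 0.000507). The 4 genes had no overlap between lines.

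Few genes of glucose metabolism were called lower. Among genes of glycolysis, gluconeogenesis and glycogen, 7 of 38 measured members were higher in the hybrid (18.4%) and 2 lower (5.26%), with a median log2 difference of 0.02. The number lower was 1 leaving out hybrid 1, 1 leaving out hybrid 2, 1 leaving out hybrid 3, 1 leaving out P. vachelli 1 and 1 leaving out P. vachelli 3. PPP1R3B, which directs the phosphatase that activates glycogen synthase, had 127, 120 and 125 TPM in hybrid livers, against 45, 48.7 and 50.3 TPM in P. vachelli livers (log2 difference 1.35 ± 0.07, limma adjusted p = 6.05e-06). P. fulvidraco had 113 ± 1.19 TPM of it. PGM1, at the branch between glycogen and glycolysis, had 82.5, 85 and 90.3 TPM in hybrid livers, against 61.4, 66.5 and 58.6 TPM in P. vachelli livers (log2 difference 0.46 ± 0.09, limma adjusted p = 0.00548). Both were higher in every hybrid library than in any P. vachelli library.

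PKM, a pyruvate kinase of glycolysis, rose to 224 ± 8.06 TPM in hybrid livers, against 122 ± 6.79 TPM in P. vachelli livers (log2 difference 0.88 ± 0.08, limma adjusted p = 0.000108), and FBP2, described as fructose-1,6-bisphosphatase, an enzyme of gluconeogenesis, to 252 ± 17.3 TPM in hybrid livers, against 136 ± 3.34 TPM in P. vachelli livers (log2 difference 0.88 ± 0.18, limma adjusted p = 0.00728). LDHBA, the heart-type subunit of lactate dehydrogenase, fell, with 359, 353 and 333 TPM in hybrid livers, against 829.6, 777 and 773 TPM in P. vachelli livers (log2 difference -1.18 ± 0.17, limma adjusted p = 0.00113). G6PC, the phosphatase that releases glucose from the liver, had 1520.3, 2034 and 2081 TPM in hybrid livers, against 1943, 1946 and 1886 TPM in P. vachelli livers, and these overlapped (log2 difference -0.05 ± 0.20, limma adjusted p = 0.875).

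Genes of fat metabolism were called in both directions. For fatty acid oxidation and ketone bodies, 6 of 38 measured members were higher in the hybrid (15.8%) and 17 lower (44.7%), with a median log2 difference of -0.24. With rows that lack a symbol joined, 10 were higher and 16 lower. The summed level of the list was 13149 to 14578 TPM in hybrid livers and 10127 to 10782 TPM in P. vachelli livers, opposite in direction to the count. BDH1, the enzyme that interconverts the ketone bodies, had 11.3, 15.2 and 12.4 TPM in hybrid livers, against 36.2, 40.7 and 36.7 TPM in P. vachelli livers (log2 difference -1.48 ± 0.20, limma adjusted p = 0.000837). ACSL4, which activates long-chain fatty acids, arachidonate among them, had 25.5, 24.1 and 18.7 TPM in hybrid livers, against 64.4, 66.4 and 68.7 TPM in P. vachelli livers (log2 difference -1.52 ± 0.24, limma adjusted p = 0.00197). HADHA, the main subunit of the mitochondrial trifunctional protein, had 134, 122 and 143 TPM in hybrid livers, against 212, 199 and 234 TPM in P. vachelli livers (log2 difference -0.69 ± 0.09, limma adjusted p = 0.000872). Each fell in all hybrid libraries relative to all P. vachelli libraries. SCP2, a peroxisomal thiolase and lipid carrier, stood at 659 ± 89.9 TPM in hybrid livers, against 1166 ± 57.8 TPM in P. vachelli livers (log2 difference -0.83 ± 0.10, limma adjusted p = 0.000497), and SLC27A2, which activates very long fatty acids, at 189 ± 9.17 TPM in hybrid livers, against 331 ± 2.78 TPM in P. vachelli livers (log2 difference -0.80 ± 0.07, limma adjusted p = 0.000116). Against this current, the peroxisomal bifunctional enzyme EHHADH had 73.2, 67 and 76.5 TPM in hybrid livers, against 24.2, 23.6 and 22.3 TPM in P. vachelli livers (log2 difference 1.59 ± 0.12, limma adjusted p = 4.25e-05), and the medium-chain dehydrogenase ACADM rose to 99.3 ± 6.12 TPM in hybrid livers, against 71.5 ± 5.84 TPM in P. vachelli livers (log2 difference 0.47 ± 0.09, limma adjusted p = 0.00389).

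In fatty acid and triglyceride synthesis, 8 of 31 measured members were higher in the hybrid (25.8%) and 4 lower (12.9%), with a median log2 difference of 0.17. Adding rows without a symbol gave 6 higher and 5 lower, and the median turned to -0.03. FADS2, the desaturase that begins the making of long polyunsaturated fatty acids, had 598, 650.1 and 721 TPM in hybrid livers, against 160.2, 92.1 and 121 TPM in P. vachelli livers (log2 difference 2.42 ± 0.30, limma adjusted p = 0.000582). ELOVL6, which lengthens saturated fatty acids, went the other way, with 9.56, 11.1 and 10.8 TPM in hybrid livers, against 36.4, 38.5 and 51.9 TPM in P. vachelli livers (log2 difference -1.90 ± 0.14, limma adjusted p = 3.94e-05). MGLL, which splits monoglycerides, rose to 22.2 ± 6.18 TPM in hybrid livers, against 4.36 ± 0.836 TPM in P. vachelli livers (log2 difference 2.09 ± 0.19, limma adjusted p = 0.000106). ACSS2, which makes acetyl-CoA from acetate, rose to 135 ± 12.9 TPM in hybrid livers, against 80.3 ± 5.56 TPM in P. vachelli livers (log2 difference 0.74 ± 0.13, limma adjusted p = 0.00365), and LIPC, the hepatic lipase, fell to 48 ± 7.96 TPM in hybrid livers, against 114 ± 6.73 TPM in P. vachelli livers (log2 difference -1.24 ± 0.22, limma adjusted p = 0.00348). The liver fatty acid-binding protein FABP1B.1 had 182, 475 and 282 TPM in hybrid livers, against 72.4, 81 and 139 TPM in P. vachelli livers, with hybrid 2 the highest (log2 difference 1.62 ± 0.37, limma adjusted p = 0.0103).

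**Figure D4:**
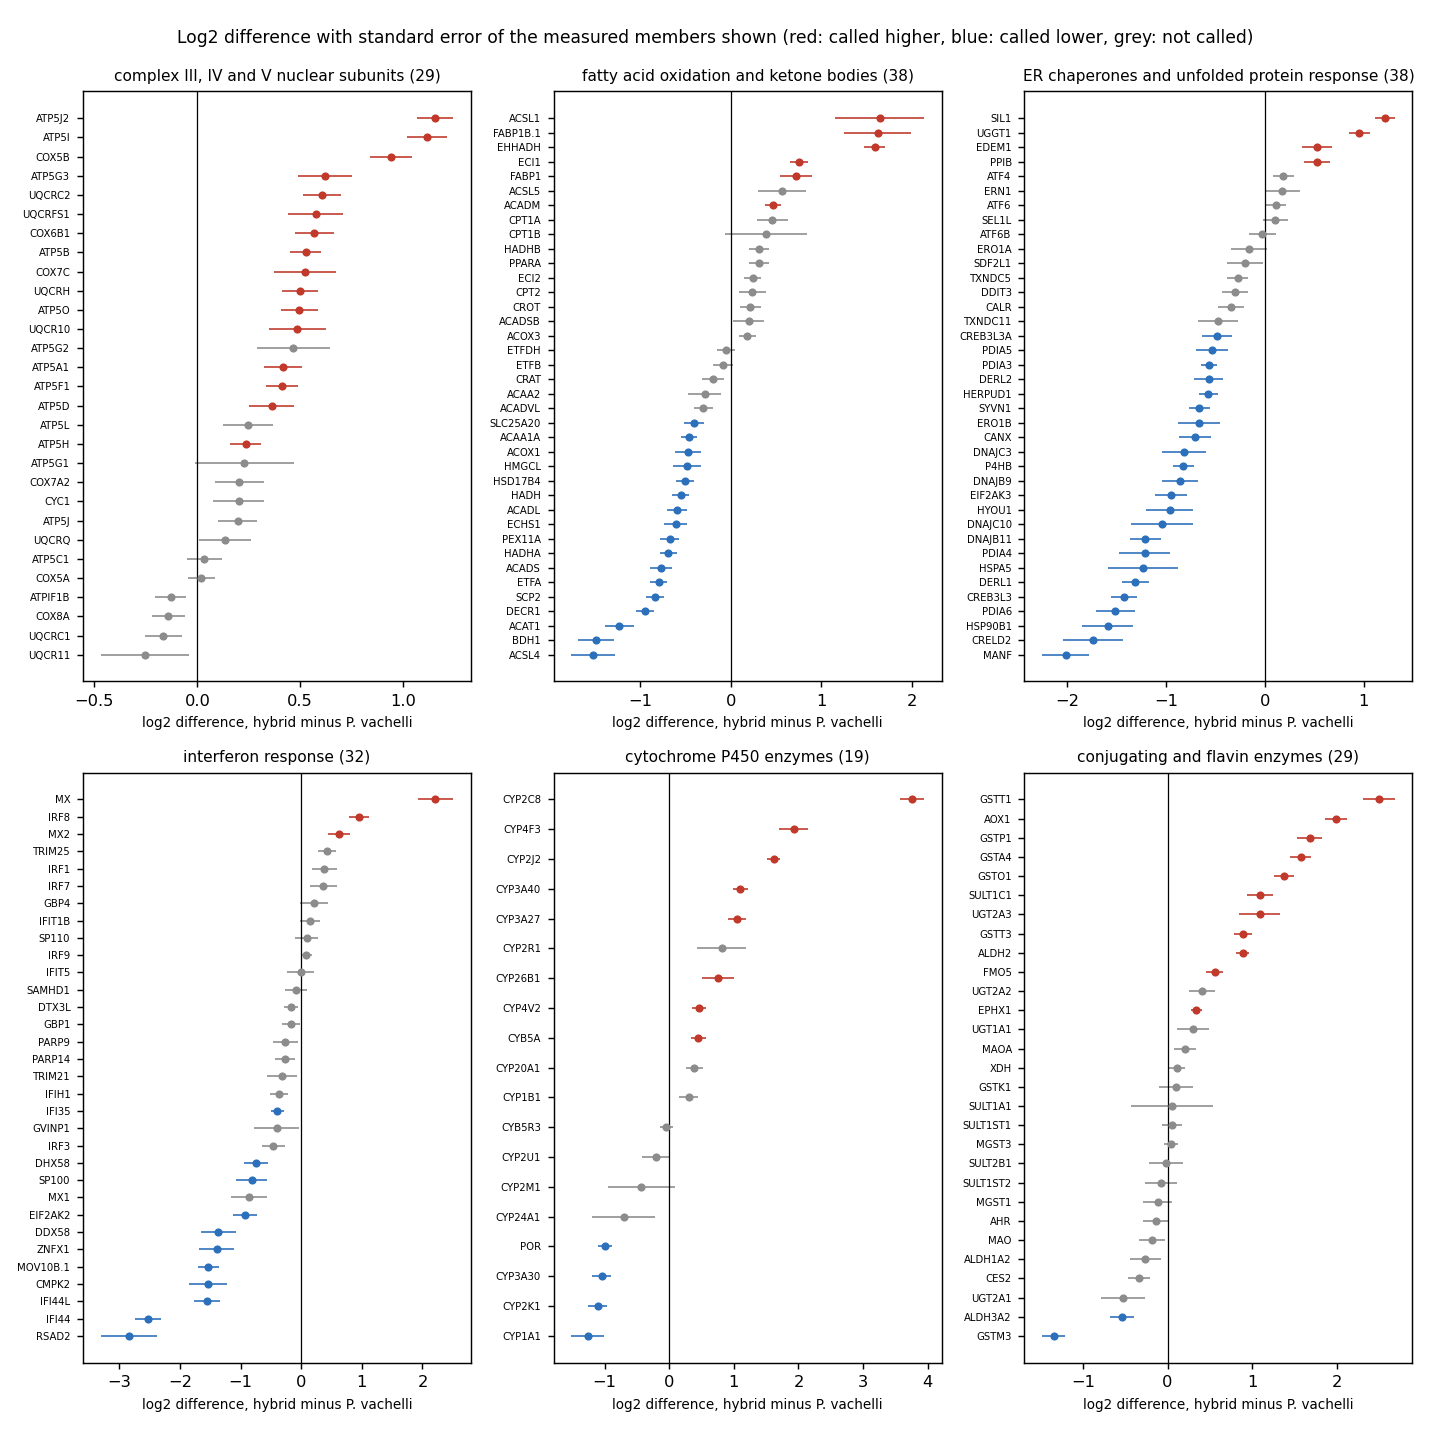
Log2 difference, hybrid minus P. vachelli, with its standard error, for the measured members of 6 gene lists, apart from a gene not reported here. All called members of complexes III to V lie to the right of 0, and most called members of the endoplasmic reticulum, fatty acid oxidation and interferon lists lie to the left.

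Sterol and bile acid genes were called in both directions: 5 of 36 measured members were higher in the hybrid (13.9%) and 4 lower (11.1%), with a median log2 difference of 0.26. The number higher was 3 leaving out hybrid 1 and 3 leaving out P. vachelli 1. BAAT, which joins bile acids to taurine or glycine, had 695, 544 and 575 TPM in hybrid livers, against 122, 101 and 111 TPM in P. vachelli livers (log2 difference 2.43 ± 0.11, limma adjusted p = 1.6e-06). ABCB11, the pump that exports bile salts into bile, had 207, 172 and 269 TPM in hybrid livers, against 105, 93 and 96.1 TPM in P. vachelli livers (log2 difference 1.11 ± 0.18, limma adjusted p = 0.0021). Both steps, conjugation and export, were thus higher at the RNA level in every hybrid library. CYP27A1, a sterol hydroxylase of the alternative bile acid route, fell to 245 ± 16.6 TPM in hybrid livers, against 376 ± 35.3 TPM in P. vachelli livers (log2 difference -0.61 ± 0.10, limma adjusted p = 0.0027), and SOAT2, which esterifies cholesterol, to 138 ± 11.4 TPM in hybrid livers, against 301 ± 24.9 TPM in P. vachelli livers (log2 difference -1.13 ± 0.14, limma adjusted p = 0.000617).

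Apolipoproteins carry lipids in plasma. In this list and its receptors, 4 of 18 measured members were higher in the hybrid (22.2%) and 5 lower (27.8%), with a median log2 difference of -0.06. APOC1, the most abundant of those named here, had 14771, 15129 and 13092 TPM in hybrid livers, against 14875, 16145 and 13873 TPM in P. vachelli livers and was not called (log2 difference -0.06 ± 0.08, limma adjusted p = 0.613). CETP, which exchanges cholesteryl esters between lipoproteins, had 112, 122 and 117 TPM in hybrid livers, against 256, 230.3 and 294 TPM in P. vachelli livers (log2 difference -1.14 ± 0.11, limma adjusted p = 0.000123), and APOF had 87.5, 100 and 93 TPM in hybrid livers, against 174, 187 and 193 TPM in P. vachelli livers (log2 difference -0.98 ± 0.10, limma adjusted p = 0.000231). These levels did not overlap. ABCA1, the cholesterol exporter, rose to 83.2 ± 31.1 TPM in hybrid livers, against 35.6 ± 2.92 TPM in P. vachelli livers (log2 difference 1.14 ± 0.21, limma adjusted p = 0.00388). The symbol APOA1, whose row is described as apolipoprotein A-IV, rose to 490.4 ± 52.5 TPM in hybrid livers, against 161 ± 17.1 TPM in P. vachelli livers (log2 difference 1.60 ± 0.17, limma adjusted p = 0.000253), and the symbol APOA4, whose row is described as like apolipoprotein A-I, fell to 506 ± 122 TPM in hybrid livers, against 859 ± 79.6 TPM in P. vachelli livers (log2 difference -0.79 ± 0.19, limma adjusted p = 0.0133). For APOB, the core protein of very low density lipoprotein, the sum of the named rows gave a log2 difference of 0.87 ± 0.08. With rows that lack a symbol joined to it, the same difference was -0.55, so no direction is given for APOB.

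Amino acid breakdown was among the lists with the most members called higher. Of its genes, 20 of 54 measured members were higher in the hybrid (37%) and 13 lower (24.1%), with a median log2 difference of 0.10. The number lower was 7 leaving out P. vachelli 3. The tryptophan route to kynurenine and on toward nicotinamide rose at several steps. IDO2, which opens the tryptophan ring, had 39.7, 47.3 and 34.1 TPM in hybrid livers, against 4.31, 7.18 and 8.67 TPM in P. vachelli livers (log2 difference 2.45 ± 0.22, limma adjusted p = 9.42e-05). TDO2B, the other ring-opening enzyme, had 273, 199 and 260.2 TPM in hybrid livers, against 92.5, 114 and 162 TPM in P. vachelli livers (log2 difference 1.01 ± 0.21, limma adjusted p = 0.00791). KYNU, which acts further down, stood at 80.5 ± 15.2 TPM in hybrid livers, against 41.7 ± 2.49 TPM in P. vachelli livers (log2 difference 0.91 ± 0.14, limma adjusted p = 0.0014). HAAO, the next enzyme of the route, stood at 265 ± 1.04 TPM in hybrid livers, against 154 ± 15.2 TPM in P. vachelli livers (log2 difference 0.78 ± 0.10, limma adjusted p = 0.000544). Hybrid libraries exceeded P. vachelli libraries for all 4 genes, of which IDO2 and TDO2B serve the same step.

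GPT2, an alanine aminotransferase, had 24.5, 24.4 and 23.1 TPM in hybrid livers, against 1.61, 1.67 and 1.5 TPM in P. vachelli livers (log2 difference 3.27 ± 0.09, limma adjusted p = 8.4e-08). A second symbol for this enzyme, GPT2L, was far more abundant and fell, with 545, 596 and 528 TPM in hybrid livers, against 886, 869.9 and 793 TPM in P. vachelli livers (log2 difference -0.61 ± 0.09, limma adjusted p = 0.00144). The 2 symbols are close relatives, and how reads were shared between them is not given in the sources used here. PRODH, which begins proline breakdown, rose to 10.8 ± 3.61 TPM in hybrid livers, against 1.5 ± 0.28 TPM in P. vachelli livers (log2 difference 2.19 ± 0.23, limma adjusted p = 0.000249), and FTCD, of histidine breakdown, to 148 ± 6.58 TPM in hybrid livers, against 72.9 ± 6.6 TPM in P. vachelli livers (log2 difference 1.01 ± 0.08, limma adjusted p = 7.51e-05). CPS1, which feeds ammonia into the urea cycle, was low in both lines, at 1.64 ± 0.531 TPM in hybrid livers, against 0.01 ± 0.01 TPM in P. vachelli livers (log2 difference 1.37 ± 0.17, limma adjusted p = 0.000563). UOX, the uricase of purine breakdown, was abundant and rose, with 1366, 1391 and 1344 TPM in hybrid livers, against 839, 803 and 888 TPM in P. vachelli livers (log2 difference 0.70 ± 0.07, limma adjusted p = 0.000164).

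Taurine, the sulfur compound that BAAT joins to bile acids, is made from cysteine. CSAD, the decarboxylase that yields hypotaurine, had 277, 507 and 476 TPM in hybrid livers, against 62.8, 44.4 and 67.9 TPM in P. vachelli livers (log2 difference 2.80 ± 0.29, limma adjusted p = 0.000204). GADL1, described in the table as the same type of decarboxylase, had 92.8, 131 and 144 TPM in hybrid livers, against 20.4, 11.3 and 17.2 TPM in P. vachelli livers (log2 difference 2.85 ± 0.26, limma adjusted p = 0.000111). Both stood above P. fulvidraco too, which had 43.2 ± 14 TPM for CSAD and 17 ± 4.6 TPM for GADL1. CDO1, the step before them, had 482, 636 and 418 TPM in hybrid livers, against 625, 746 and 751 TPM in P. vachelli livers and was not called (log2 difference -0.48 ± 0.23, limma adjusted p = 0.153).

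Over the whole list of one-carbon, sulfur amino acid and taurine genes, 3 of 25 measured members were higher in the hybrid (12%) and 8 lower (32%), with a median log2 difference of -0.15. The number lower was 4 leaving out hybrid 1, 5 leaving out hybrid 3, 4 leaving out P. vachelli 2 and 5 leaving out P. vachelli 3. The methionine adenosyltransferases, which make the cell's methyl donor, were lower: MAT2A had 80.8, 80.3 and 84.5 TPM in hybrid livers, against 164, 164 and 194 TPM in P. vachelli livers (log2 difference -1.07 ± 0.09, limma adjusted p = 6.89e-05), and MAT1A had 109.9, 90.4 and 94.9 TPM in hybrid livers, against 169, 171 and 202 TPM in P. vachelli livers (log2 difference -0.87 ± 0.10, limma adjusted p = 0.000403).

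**Figure D5:**
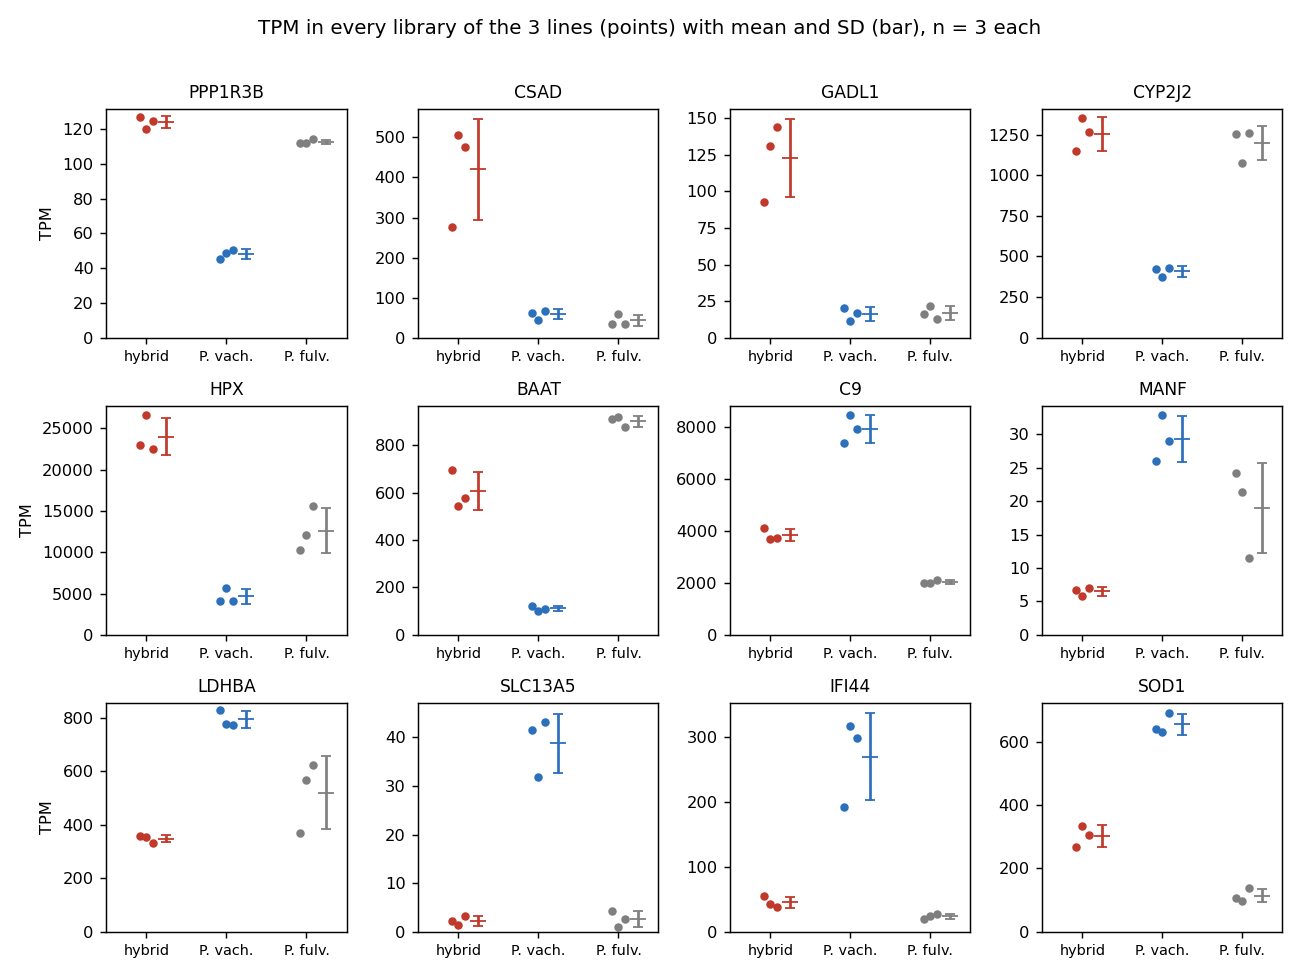
TPM per library of 12 genes in the hybrid, P. vachelli and P. fulvidraco. For PPP1R3B, CSAD and GADL1 the hybrid points lie above those of both species, whereas for C9, SOD1 and IFI44 they lie between them.

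Enzymes of foreign-compound metabolism were called higher more often than lower. Among cytochrome P450 enzymes, 8 of 19 measured members were higher in the hybrid (42.1%) and 4 lower (21.1%), with a median log2 difference of 0.39, and among conjugating and flavin enzymes, 11 of 29 measured members were higher in the hybrid (37.9%) and 2 lower (6.9%), with a median log2 difference of 0.11. In the second list the number lower was 1 leaving out hybrid 1, 1 leaving out hybrid 2 and 1 leaving out P. vachelli 2. CYP2J2, a fatty acid epoxygenase, had 1146, 1352 and 1267 TPM in hybrid livers, against 426, 371 and 430 TPM in P. vachelli livers (log2 difference 1.62 ± 0.10, limma adjusted p = 1.17e-05). CYP3A40, of the main drug-metabolising family, had 343, 362 and 305 TPM in hybrid livers, against 137, 163 and 169.8 TPM in P. vachelli livers (log2 difference 1.10 ± 0.11, limma adjusted p = 0.000213). CYP4F3, whose row is described as a member of the neighbouring 4B subfamily, rose to 61.9 ± 13.5 TPM in hybrid livers, against 15.3 ± 0.3 TPM in P. vachelli livers (log2 difference 1.93 ± 0.23, limma adjusted p = 0.000429). Lower, by contrast, were CYP1A1, the enzyme induced by aromatic hydrocarbons, with 100, 126 and 70.7 TPM in hybrid livers, against 277, 226 and 199 TPM in P. vachelli livers (log2 difference -1.26 ± 0.25, limma adjusted p = 0.0055), and CYP2K1, a fish P450, with 559, 533 and 774 TPM in hybrid livers, against 1225, 1211 and 1546 TPM in P. vachelli livers (log2 difference -1.10 ± 0.15, limma adjusted p = 0.000841). POR, the reductase that feeds electrons to these P450 enzymes, fell to 19.1 ± 2.74 TPM in hybrid livers, against 38.8 ± 0.61 TPM in P. vachelli livers (limma adjusted p = 0.000329).

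Among glutathione transferases, which attach glutathione to reactive compounds, GSTT1 had 418, 415 and 454 TPM in hybrid livers, against 85.6, 57.6 and 85 TPM in P. vachelli livers (log2 difference 2.50 ± 0.19, limma adjusted p = 4e-05). GSTP1 also rose, to 292 ± 21.4 TPM in hybrid livers, against 90.5 ± 5.02 TPM in P. vachelli livers (log2 difference 1.68 ± 0.14, limma adjusted p = 8.75e-05), and GSTA4 to 133 ± 13.9 TPM in hybrid livers, against 43.8 ± 2.5 TPM in P. vachelli livers (log2 difference 1.57 ± 0.13, limma adjusted p = 6.69e-05). GSTM3 fell, with 72.2, 90.4 and 79.8 TPM in hybrid livers, against 195, 219 and 205 TPM in P. vachelli livers (log2 difference -1.35 ± 0.14, limma adjusted p = 0.000204). None of these 4 overlapped between lines. AOX1, an aldehyde oxidase, rose to 177 ± 10.5 TPM in hybrid livers, against 44.3 ± 8.51 TPM in P. vachelli livers (log2 difference 1.99 ± 0.13, limma adjusted p = 2.1e-05).

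Antioxidant genes showed no common direction, as 6 of 29 measured members were higher in the hybrid (20.7%) and 7 lower (24.1%), with a median log2 difference of -0.08. The number higher was 3 leaving out hybrid 3, 3 leaving out P. vachelli 1, 3 leaving out P. vachelli 2 and 3 leaving out P. vachelli 3. SOD1, the cytosolic superoxide dismutase, had 267, 334 and 306 TPM in hybrid livers, against 641, 630 and 692 TPM in P. vachelli livers (log2 difference -1.12 ± 0.13, limma adjusted p = 0.00044). PRDX6, a peroxiredoxin that also repairs phospholipids, had 448, 530.3 and 447 TPM in hybrid livers, against 671, 676 and 650.1 TPM in P. vachelli livers (log2 difference -0.49 ± 0.09, limma adjusted p = 0.00335). PRDX4, the peroxiredoxin of the secretory pathway, had 126, 126 and 130.3 TPM in hybrid livers, against 81.1, 77.8 and 79.3 TPM in P. vachelli livers (log2 difference 0.68 ± 0.09, limma adjusted p = 0.000733). SOD1 and PRDX6 were lower and PRDX4 higher in every hybrid library.

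Among genes of protein synthesis, ribosomal proteins were called higher more often than lower. In the large ribosomal subunit, 15 of 46 measured members were higher in the hybrid (32.6%) and 2 lower (4.35%), with a median log2 difference of 0.15, and in the small subunit, 13 of 32 measured members were higher in the hybrid (40.6%) and 5 lower (15.6%), with a median log2 difference of 0.19. RPL35 of the large subunit had 522, 468 and 464 TPM in hybrid livers, against 131, 142 and 136 TPM in P. vachelli livers (log2 difference 1.83 ± 0.09, limma adjusted p = 3.9e-06), and RPS15A of the small subunit had 1202, 1127 and 1048 TPM in hybrid livers, against 258, 214 and 192 TPM in P. vachelli livers (log2 difference 2.35 ± 0.11, limma adjusted p = 2.54e-06). RPLP2, an acidic protein of the ribosomal stalk, had 657, 601 and 804 TPM in hybrid livers, against 56.2, 45.2 and 43.8 TPM in P. vachelli livers (log2 difference 3.80 ± 0.13, limma adjusted p = 2.61e-07). For these 3 genes, the lowest hybrid library was far above the highest P. vachelli library. RPL23 rose to 3089 ± 557 TPM in hybrid livers, against 994 ± 24.9 TPM in P. vachelli livers (log2 difference 1.62 ± 0.13, limma adjusted p = 6.21e-05), and RPS21 to 913 ± 99.6 TPM in hybrid livers, against 385 ± 11.7 TPM in P. vachelli livers (log2 difference 1.24 ± 0.09, limma adjusted p = 5.06e-05). RPL12, by contrast, fell to 1851 ± 136 TPM in hybrid livers, against 3004 ± 124 TPM in P. vachelli livers (log2 difference -0.70 ± 0.09, limma adjusted p = 0.000554). Among translation factors, 6 of 44 measured members were higher in the hybrid (13.6%) and 10 lower (22.7%), with a median log2 difference of -0.14, the number higher being 3 leaving out P. vachelli 2. Of 21 measured aminoacyl-tRNA synthetases, 2 were higher (9.52%) and 1 lower (4.76%), the number lower being 4 leaving out hybrid 3 and 0 leaving out P. vachelli 3. EPRS, which charges tRNAs with glutamate and proline, rose to 43 ± 3.88 TPM in hybrid livers, against 8.91 ± 0.246 TPM in P. vachelli livers (log2 difference 2.15 ± 0.09, limma adjusted p = 1.58e-06), and MARS, which charges tRNA with methionine, to 7.7 ± 1.44 TPM in hybrid livers, against 2.24 ± 0.73 TPM in P. vachelli livers (log2 difference 1.44 ± 0.22, limma adjusted p = 0.0018).

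Protein folding in the endoplasmic reticulum leaned downward. Plasma proteins fold there with the help of chaperones and disulfide isomerases, and unfolded protein raises the same genes. In this list, 4 of 38 measured members were higher in the hybrid (10.5%) and 23 lower (60.5%), with a median log2 difference of -0.57. The number lower was 15 leaving out P. vachelli 2, and the number higher was 2 leaving out hybrid 1 and 2 leaving out P. vachelli 1. MANF, a secreted folding factor, had 6.68, 5.76 and 7.03 TPM in hybrid livers, against 26, 32.9 and 29 TPM in P. vachelli livers (log2 difference -2.01 ± 0.24, limma adjusted p = 0.000438). HSP90B1, the reticulum's HSP90, had 36.7, 38.9 and 38.6 TPM in hybrid livers, against 94.2, 149.9 and 113 TPM in P. vachelli livers (log2 difference -1.59 ± 0.26, limma adjusted p = 0.00208), and PDIA4, a disulfide isomerase, had 24, 25.3 and 22.4 TPM in hybrid livers, against 44.4, 72.4 and 56.9 TPM in P. vachelli livers (log2 difference -1.21 ± 0.26, limma adjusted p = 0.00803). Their levels were close together in the hybrid and more spread in P. vachelli.

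DERL1, of the channel that removes misfolded proteins, had 13.8, 12.2 and 12.7 TPM in hybrid livers, against 35.6, 32.7 and 31.7 TPM in P. vachelli livers (log2 difference -1.31 ± 0.14, limma adjusted p = 0.000238). CREB3L3, a membrane-bound transcription factor of the liver, had 13.7, 11.8 and 13.5 TPM in hybrid livers, against 36, 33.8 and 40 TPM in P. vachelli livers (log2 difference -1.42 ± 0.13, limma adjusted p = 0.000111). P4HB and PDIA3, both disulfide isomerases, and CRELD2, a secreted reticulum protein, fell too, with log2 differences of -0.83 ± 0.11, -0.57 ± 0.08 and -1.74 ± 0.30 and limma adjusted p of 0.000674, 0.0012 and 0.0029. HSPA5, the reticulum's main HSP70, had 21.9, 34.8 and 29 TPM in hybrid livers, against 48.1, 96.8 and 65.8 TPM in P. vachelli livers (log2 difference -1.23 ± 0.36, limma adjusted p = 0.0288). Its call was lost without hybrid 1 (limma adjusted p = 0.0921), hybrid 3 (0.0604), P. vachelli 2 (0.0947) and P. vachelli 3 (0.0714). Higher in the hybrid were SIL1, which exchanges nucleotide on HSPA5, with 9.01, 9.95 and 9.24 TPM in hybrid livers, against 3.17, 3.56 and 3.71 TPM in P. vachelli livers (log2 difference 1.22 ± 0.10, limma adjusted p = 6.87e-05), and UGGT1, which senses folding of glycoproteins, with 16.9, 15.5 and 17.2 TPM in hybrid livers, against 6.89, 8.43 and 8.86 TPM in P. vachelli livers (log2 difference 0.96 ± 0.11, limma adjusted p = 0.000338).

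The neighbouring lists moved less. For translocation into the reticulum and vesicle coats, 2 of 41 measured members were higher in the hybrid (4.88%) and 10 lower (24.4%), with a median log2 difference of -0.26, and the number higher was 0 leaving out hybrid 1, 1 leaving out hybrid 2, 0 leaving out hybrid 3, 1 leaving out P. vachelli 1, 1 leaving out P. vachelli 2 and 0 leaving out P. vachelli 3. For heat shock proteins of cytosol and mitochondria, 1 of 26 measured members was higher in the hybrid (3.85%) and 10 lower (38.5%), with a median log2 difference of -0.34, and the number lower was 6 leaving out hybrid 1, 6 leaving out hybrid 2 and 6 leaving out P. vachelli 3. CCT2, of the ring that folds actin and tubulin, fell to 29.3 ± 1.36 TPM in hybrid livers, against 44.7 ± 4.68 TPM in P. vachelli livers (log2 difference -0.59 ± 0.10, limma adjusted p = 0.00252), whereas TRAP1, a mitochondrial HSP90, rose to 19.9 ± 1.08 TPM in hybrid livers, against 12.4 ± 0.719 TPM in P. vachelli livers (log2 difference 0.64 ± 0.10, limma adjusted p = 0.00187). The cytosolic HSP90AB1 had 404 ± 35.9 TPM in hybrid livers, against 377 ± 30.4 TPM in P. vachelli livers and was not called (log2 difference 0.10 ± 0.09, limma adjusted p = 0.46).

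Plasma proteins include the most abundant transcripts of the liver. HPX, described in the table as the warm temperature acclimation protein, a fish plasma protein related to haemopexin, which binds free haem, had 23018, 26580 and 22479 TPM in hybrid livers, against 4094, 5697 and 4125 TPM in P. vachelli livers (log2 difference 2.39 ± 0.17, limma adjusted p = 3.71e-05). Every hybrid library lay above the libraries of both species, as P. fulvidraco had 12628 ± 2699 TPM. TF, the iron carrier transferrin, had 9872, 12260 and 10417 TPM in hybrid livers, against 5382, 6128 and 5035 TPM in P. vachelli livers (log2 difference 0.97 ± 0.10, limma adjusted p = 0.00023). Of plasma carriers and acute phase proteins, 4 of 19 measured members were higher in the hybrid (21.1%) and 6 lower (31.6%), with a median log2 difference of 0.02. ITIH2 and ITIH4, heavy chains of the inter-alpha-trypsin inhibitors, moved apart, with log2 differences of 0.43 ± 0.08 and -0.57 ± 0.12 and limma adjusted p of 0.00375 and 0.00702.

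Complement, the cascade of plasma proteins that marks and lyses microbes, was called in both directions: 5 of 24 measured members were higher in the hybrid (20.8%) and 5 lower (20.8%), with a median log2 difference of -0.04. C9, which forms the ring of the membrane attack pore, had 4115, 3706 and 3745 TPM in hybrid livers, against 7379, 8484 and 7907 TPM in P. vachelli livers (log2 difference -1.04 ± 0.08, limma adjusted p = 3.79e-05). C7, which anchors that pore, had 124, 117 and 115 TPM in hybrid livers, against 399, 312 and 449 TPM in P. vachelli livers (log2 difference -1.69 ± 0.17, limma adjusted p = 0.000184). C5, from which the pore starts, had 625, 613 and 613 TPM in hybrid livers, against 257, 294 and 279 TPM in P. vachelli livers (log2 difference 1.16 ± 0.07, limma adjusted p = 1.65e-05), and C4, of the classical pathway, had 188, 179 and 159.9 TPM in hybrid livers, against 23.1, 24.6 and 23.4 TPM in P. vachelli livers (log2 difference 2.84 ± 0.08, limma adjusted p = 8.93e-08). The later members C7 and C9 were thus lower and C4 and C5 higher, without overlap.

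In coagulation, fibrinolysis and serpins, 10 of 32 measured members were higher in the hybrid (31.2%) and 9 lower (28.1%), with a median log2 difference of -0.01. All 3 fibrinogen chains, which form the clot's fibres, fell: FGA had 3601, 3669.7 and 3512 TPM in hybrid livers, against 5062, 5903 and 5832 TPM in P. vachelli livers (log2 difference -0.64 ± 0.07, limma adjusted p = 0.000397), FGB had 6977, 6944 and 7342 TPM in hybrid livers, against 8988, 10354 and 10242 TPM in P. vachelli livers (log2 difference -0.47 ± 0.09, limma adjusted p = 0.00521), and FGG had 3386, 3377 and 3612 TPM in hybrid livers, against 4436, 4659 and 4847 TPM in P. vachelli livers (log2 difference -0.43 ± 0.07, limma adjusted p = 0.00231). The falls were small, and each was larger than the spread between libraries. SERPIND1, heparin cofactor 2, an inhibitor of thrombin, had 1440.2, 1366 and 1338 TPM in hybrid livers, against 2999, 3366 and 3164 TPM in P. vachelli livers (log2 difference -1.20 ± 0.07, limma adjusted p = 8.08e-06). SERPINC1, antithrombin, had 2061, 2036 and 2149 TPM in hybrid livers, against 1286, 1314 and 1228 TPM in P. vachelli livers (log2 difference 0.71 ± 0.07, limma adjusted p = 0.000164). SERPINF2, the plasmin inhibitor, rose to 347 ± 17.8 TPM in hybrid livers, against 166 ± 6.58 TPM in P. vachelli livers (log2 difference 1.06 ± 0.08, limma adjusted p = 5.34e-05), KNG1, kininogen, rose to 2404 ± 58.2 TPM in hybrid livers, against 1493 ± 134 TPM in P. vachelli livers (log2 difference 0.69 ± 0.08, limma adjusted p = 0.000491), and VTN, vitronectin, fell to 1088 ± 67.5 TPM in hybrid livers, against 1631 ± 122 TPM in P. vachelli livers (log2 difference -0.58 ± 0.09, limma adjusted p = 0.00172).

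Antiviral genes were called lower more often than higher in the hybrid. Interferon induces them after infection, and they also have a resting level. In the interferon response, 3 of 33 measured members were higher in the hybrid (9.09%) and 12 lower (36.4%), with a median log2 difference of -0.32. IFI44, an interferon-induced protein, had 55.3, 42.7 and 37.9 TPM in hybrid livers, against 193, 317 and 299 TPM in P. vachelli livers (log2 difference -2.53 ± 0.21, limma adjusted p = 7.56e-05). RSAD2, viperin, which blocks viral replication, had 6.68, 3.87 and 13.4 TPM in hybrid livers, against 33.1, 83.1 and 69.2 TPM in P. vachelli livers (log2 difference -2.85 ± 0.46, limma adjusted p = 0.00216). For both genes the hybrid lay below P. vachelli in every library.

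Sensors of viral RNA followed. DDX58, known as RIG-I, had 2.14, 2.68 and 5.54 TPM in hybrid livers, against 7.89, 11.9 and 10.3 TPM in P. vachelli livers (log2 difference -1.37 ± 0.28, limma adjusted p = 0.00685), and EIF2AK2, the kinase that stops translation on double-stranded RNA, had 6.08, 10.8 and 10.1 TPM in hybrid livers, against 16.6, 17.6 and 18.4 TPM in P. vachelli livers (log2 difference -0.93 ± 0.20, limma adjusted p = 0.0075). MOV10B.1, an RNA helicase, fell to 16.8 ± 2.67 TPM in hybrid livers, against 50 ± 1.87 TPM in P. vachelli livers (log2 difference -1.53 ± 0.17, limma adjusted p = 0.000325), IFI44L to 9.13 ± 1.6 TPM in hybrid livers, against 28.6 ± 3.82 TPM in P. vachelli livers (log2 difference -1.55 ± 0.22, limma adjusted p = 0.000994), and CMPK2, a kinase coupled to viperin, to 4.25 ± 2.07 TPM in hybrid livers, against 13.6 ± 3.05 TPM in P. vachelli livers (log2 difference -1.54 ± 0.31, limma adjusted p = 0.00606). MX, an antiviral GTPase, rose instead, with 6.08, 7.37 and 7.16 TPM in hybrid livers, against 1.29, 0.6 and 0.32 TPM in P. vachelli livers (log2 difference 2.21 ± 0.30, limma adjusted p = 0.000789), and IRF8, a factor of macrophage development, rose to 4.19 ± 0.845 TPM in hybrid livers, against 1.67 ± 0.0802 TPM in P. vachelli livers (log2 difference 0.95 ± 0.16, limma adjusted p = 0.0029). P. fulvidraco had 24.1 ± 3.65 TPM for IFI44 and 4.81 ± 2.23 TPM for RSAD2.

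Among cytokines, chemokines and innate receptors, 9 of 40 measured members were higher in the hybrid (22.5%) and 2 lower (5%), with a median log2 difference of 0.19. The number lower was 4 leaving out hybrid 3. Beside CCL3 and CCL5, CXCL8, which draws neutrophils, had 7.54, 6.7 and 14.3 TPM in hybrid livers, against 2.34, 3.53 and 2.4 TPM in P. vachelli livers (log2 difference 1.43 ± 0.27, limma adjusted p = 0.00401). NLRC3, a cytosolic receptor of the NOD family, many of whose relatives exist in fish, had 223, 186 and 322 TPM in hybrid livers, against 107, 109 and 101 TPM in P. vachelli livers over 14 rows (log2 difference 1.16 ± 0.17, limma adjusted p = 0.0013). CCL20, which draws lymphocytes and dendritic cells, was low and fell, with 0.59, 1.7 and 1.14 TPM in hybrid livers, against 10.5, 4.41 and 6.26 TPM in P. vachelli livers (log2 difference -1.87 ± 0.32, limma adjusted p = 0.00254).

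The growth hormone and insulin-like growth factor axis links the liver to body growth. IGF1 was not among the symbols tested. Of the axis, 9 of 34 measured members were higher in the hybrid (26.5%) and 2 lower (5.88%), with a median log2 difference of 0.15. The number higher was 6 leaving out hybrid 3, 6 leaving out P. vachelli 1 and 6 leaving out P. vachelli 2. The number lower was 1 leaving out hybrid 1, 1 leaving out hybrid 2, 1 leaving out P. vachelli 1 and 1 leaving out P. vachelli 3. It was 3 leaving out hybrid 3. A filter of 5 TPM gave 6 higher and 3 lower, with a median log2 difference of 0.05. With rows that lack a symbol joined, 5 members were higher and 1 lower. IGF2, a growth factor made by the liver, had 127, 36 and 75.5 TPM in hybrid livers, against 27.2, 27.2 and 70.4 TPM in P. vachelli livers and was not called (log2 difference 0.89 ± 0.52, limma adjusted p = 0.227). GHR, the growth hormone receptor, had 64, 51.9 and 57.8 TPM in hybrid livers, against 47.9, 43.7 and 57.5 TPM in P. vachelli livers and was not called (log2 difference 0.22 ± 0.13, limma adjusted p = 0.228), while with unnamed rows its log2 difference was 0.76, limma adjusted p = 0.00431. The 2 results for GHR stand beside each other with no direction given.

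Downstream of these receptors, IRS2-B, an adaptor of the insulin receptor, had 18.3, 17.6 and 25 TPM in hybrid livers, against 9.16, 10.7 and 9.46 TPM in P. vachelli livers (log2 difference 0.97 ± 0.15, limma adjusted p = 0.00156). PIK3R1, the regulatory subunit of PI3 kinase, had 17.4, 17.5 and 20.8 TPM in hybrid livers, against 9.46, 9.27 and 12.6 TPM in P. vachelli livers (log2 difference 0.78 ± 0.13, limma adjusted p = 0.0024). SOCS2, which is induced by growth hormone and damps its signal, had 1.99, 1.51 and 6.49 TPM in hybrid livers, against 0.25, 0 and 0 TPM in P. vachelli livers (log2 difference 1.83 ± 0.39, limma adjusted p = 0.00831). CISH, of the same family, had 99.6, 14.5 and 74.4 TPM in hybrid livers, against 2.06, 2.38 and 26.8 TPM in P. vachelli livers and was not called (log2 difference 2.89 ± 1.04, limma adjusted p = 0.065). Leaving out hybrid 2 (limma adjusted p = 0.0356) or P. vachelli 3 (0.0209), it was called higher. All hybrid libraries were above all P. vachelli libraries for IRS2-B, PIK3R1 and SOCS2. INSR, the insulin receptor, fell to 31.9 ± 7.02 TPM in hybrid livers, against 54.7 ± 1.05 TPM in P. vachelli livers (log2 difference -0.78 ± 0.15, limma adjusted p = 0.00502), but with unnamed rows its log2 difference was -0.50, limma adjusted p = 0.099. IGFBP1, a binding protein that restrains insulin-like growth factors, had 83.2 ± 24.9 TPM in hybrid livers, against 141 ± 40.6 TPM in P. vachelli livers and was not called (log2 difference -0.75 ± 0.39, limma adjusted p = 0.177). IGFBP3 and IGFBP5 were higher over their named rows, by 1.63 ± 0.17 and 1.19 ± 0.15 on the log2 scale, and by only 0.18 and 0.33 with unnamed rows, where neither was called.

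Regulators of liver genes showed no common direction. In the list of liver transcription factors and nuclear receptors, 5 of 45 measured members were higher in the hybrid (11.1%) and 4 lower (8.89%), with a median log2 difference of -0.05. HNF4A, a master factor of hepatocytes, had 98, 128 and 130 TPM in hybrid livers, against 65.4, 74.8 and 64.8 TPM in P. vachelli livers (log2 difference 0.78 ± 0.12, limma adjusted p = 0.00149), and FOXA2, which opens chromatin at liver genes, had 19.1, 14.5 and 16.5 TPM in hybrid livers, against 33.7, 28.2 and 30 TPM in P. vachelli livers (log2 difference -0.84 ± 0.15, limma adjusted p = 0.00372). PGR, the progesterone receptor, had 14.2, 16 and 15.8 TPM in hybrid livers, against 1.89, 0.67 and 0.45 TPM in P. vachelli livers (log2 difference 3.09 ± 0.28, limma adjusted p = 0.000111). HNF4A and PGR were higher and FOXA2 lower in every hybrid library.

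In the circadian clock and its output, 6 of 22 measured members were higher in the hybrid (27.3%) and 2 lower (9.09%), with a median log2 difference of -0.02, and the number lower was 0 leaving out hybrid 1, 0 leaving out hybrid 2, 0 leaving out P. vachelli 1, 0 leaving out P. vachelli 2 and 0 leaving out P. vachelli 3. NR1D1, of the Rev-erb repressors, had 16, 16 and 20.5 TPM in hybrid livers, against 4.05, 4.35 and 5.51 TPM in P. vachelli livers (log2 difference 1.72 ± 0.17, limma adjusted p = 0.000204), and NFIL3, a clock-driven repressor, had 84.7, 53.6 and 83.3 TPM in hybrid livers, against 10.1, 13.8 and 21.6 TPM in P. vachelli livers (log2 difference 2.24 ± 0.29, limma adjusted p = 0.000688). PER2, a core clock gene, had 26.1, 37.1 and 32.3 TPM in hybrid livers, against 31.4, 31.7 and 31.9 TPM in P. vachelli livers, which overlapped (log2 difference -0.01 ± 0.18, limma adjusted p = 0.981). The labels used here give no time of sampling.

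Among membrane transporters, 17 of 65 measured members were higher in the hybrid (26.2%) and 13 lower (20%), with a median log2 difference of 0.08. SLC13A5, the citrate importer of liver cells, had 2.17, 1.33 and 3.3 TPM in hybrid livers, against 41.4, 31.7 and 43 TPM in P. vachelli livers (log2 difference -3.64 ± 0.33, limma adjusted p = 0.000121). In P. fulvidraco it stood at 2.62 ± 1.56 TPM. ABCC1, an exporter of glutathione conjugates, rose to 324 ± 56.5 TPM in hybrid livers, against 140.1 ± 10.4 TPM in P. vachelli livers (log2 difference 1.19 ± 0.13, limma adjusted p = 0.000338), SLC22A6, an organic anion carrier, rose to 11.9 ± 2.48 TPM in hybrid livers, against 3.09 ± 0.578 TPM in P. vachelli livers (log2 difference 1.65 ± 0.16, limma adjusted p = 0.000162), and AQP8, a water channel, fell to 65.6 ± 4.24 TPM in hybrid livers, against 123 ± 14.3 TPM in P. vachelli livers (log2 difference -0.89 ± 0.13, limma adjusted p = 0.00123). A group of 11 function lists had 5.88% to 21.7% of members higher and 4.76% to 24.4% lower, with medians from -0.14 to 0.24. It holds the translation factors and aminoacyl-tRNA synthetases given above, and proteasome, splicing, iron, lysosome and cell cycle among others. NUPR1, a stress-induced nuclear protein outside these lists, was abundant and rose, with 1311, 1396 and 1092 TPM in hybrid livers, against 362, 374 and 314 TPM in P. vachelli livers (log2 difference 1.85 ± 0.30, limma adjusted p = 0.00204).

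Counting genes of high level only, 52 of the 188 symbols with a mean of at least 500 TPM over the 6 libraries were higher and 47 lower. Over all symbols, 13.6% were higher and 17.0% lower. HPX, C9, SERPIND1, UOX, NUPR1 and MT-CO2, described above, belong to this set. FN1, fibronectin, showed how a change can rest on the naming of rows. Its named rows gave 1679, 1682 and 1781 TPM in hybrid livers, against 462, 462 and 423 TPM in P. vachelli livers (log2 difference 1.93 ± 0.07, limma adjusted p = 2.61e-07). With unnamed rows joined, the log2 difference was 0.20, limma adjusted p = 0.085. One unnamed fibronectin row had 858.5, 823.7 and 886.4 TPM in hybrid livers and 0.29, 0 and 0.3 TPM in P. vachelli livers.

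Transcripts of cells other than hepatocytes differed between lines as well. Pancreatic tissue lies within or along the liver of many fish. Of 13 measured acinar markers, 8 were higher in the hybrid (61.5%) and 1 lower (7.69%), against 13.6% and 17.0% over all symbols. The number higher was 4 leaving out hybrid 1, 5 leaving out hybrid 2, 5 leaving out hybrid 3, 4 leaving out P. vachelli 2 and 4 leaving out P. vachelli 3. Their summed level was 6919 to 9346.6 TPM in hybrid livers and 2413.2 to 4346.2 TPM in P. vachelli livers. CELA2A, an elastase, had 3913, 2935 and 3129 TPM in hybrid livers, against 1353, 621 and 702 TPM in P. vachelli livers (log2 difference 1.98 ± 0.39, limma adjusted p = 0.0057), and TRY3, a trypsin, had 1779, 1407 and 1315 TPM in hybrid livers, against 730, 384 and 395 TPM in P. vachelli livers (log2 difference 1.63 ± 0.33, limma adjusted p = 0.00588). The part of this material in the differences of other genes was not tested.

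Hybrid 2 stood apart in pancreatic hormones. INS, insulin, had 17.8, 146 and 25 TPM in hybrid livers, against 5.7, 4.19 and 1.92 TPM in P. vachelli livers, and SST2, somatostatin, had 20.1, 154 and 23.4 TPM in hybrid livers, against 5.79, 3.56 and 3.52 TPM in P. vachelli livers. Summed over 4 endocrine markers, the level was 52.1, 392.8 and 58.0 TPM in hybrid livers and 8.3 to 16.2 TPM in P. vachelli livers. Of the 4 markers, 2 (50%) were higher with all libraries and 1 leaving out hybrid 1, 0 leaving out hybrid 2, 1 leaving out hybrid 3, 0 leaving out P. vachelli 1, 0 leaving out P. vachelli 2 and 0 leaving out P. vachelli 3.

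Blood and immune cell marker lists had smaller median log2 differences than the acinar list. They were 0.41 for erythrocytes, 0.29 for macrophages and granulocytes and 0.32 for T and NK lymphocytes, against 1.17. Single members, CD163 and PRF1, rose by more than that. Over 9 erythrocyte markers, the summed level was 7160.6 to 9379.6 TPM in hybrid livers and 6287.7 to 9270.9 TPM in P. vachelli livers, with 3 members higher (33.3%) and 0 lower (0%). HBA, alpha globin, had 6709, 4946 and 5776 TPM in hybrid livers, against 6719.5, 4994 and 4604 TPM in P. vachelli livers (log2 difference 0.10 ± 0.20, limma adjusted p = 0.732), and HBB, beta globin, had 2597, 2160.5 and 2089 TPM in hybrid livers, against 2503, 1731 and 1648 TPM in P. vachelli livers (log2 difference 0.24 ± 0.18, limma adjusted p = 0.352). The globins overlapped between lines. Over 17 markers of macrophages and granulocytes, 4 were higher (23.5%) and 2 lower (11.8%), the number higher being 2 leaving out hybrid 2, 2 leaving out P. vachelli 1 and 2 leaving out P. vachelli 3. Their sum of 592.0 to 790.7 TPM in hybrid livers and 185.6 to 194.8 TPM in P. vachelli livers includes CD163, and the other 16 summed to 171, 218 and 229 TPM in hybrid livers and 189, 189.9 and 179.5 TPM in P. vachelli livers. Of 8 markers of T and NK lymphocytes, 3 were higher (37.5%) and 0 lower (0%), and the number higher was 1 leaving out hybrid 2 and 1 leaving out P. vachelli 3. PRF1, perforin, which kills target cells, had 13.7, 18 and 10.3 TPM in hybrid livers, against 0.85, 1.86 and 1.68 TPM in P. vachelli livers (log2 difference 2.60 ± 0.22, limma adjusted p = 7.56e-05). Markers of egg and ovary were near 0, with sums of 2.8 to 5.5 TPM in hybrid livers and 6.2 to 7.3 TPM in P. vachelli livers, and 0 of 4 were called. In P. fulvidraco, whose libraries entered the shared estimate of spread, the same sum was 37017, 13579 and 37.9 TPM. Intestine markers, of which 3 of 7 were lower (42.9%), summed to 482 to 706 TPM in hybrid livers and 862 to 1002 TPM in P. vachelli livers. Most of both sums was APOA4, whose row is described as like apolipoprotein A-I and whose levels are given above. No marker of these lists was listed at 0 in all 3 libraries of a line. The part of such cells in the results above was not tested.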

How the data were processed

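Poly(A) RNA from liver was sequenced as paired ends, per the labels' protocols. The authors deposited 1 table of TPM per assembled gene, and its libraries sum to between 999999.5 and 1000001.6 TPM. Cutadapt and FastQC are named in the submitters' processing notes, with no version. Per the file headers, rows carry identifiers in the style of the assembler Trinity. Which program quantified the rows or gave their names is not given in the sources used here. Columns were matched to libraries by title, leaving 0 value columns unmatched. TPM keep no depth, so no counting interval is given, and reads shared by close relatives may have been split in unknown ways.

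Tested were rows that reached 1 TPM in 3 or more of the 9 libraries, singly and summed by symbol without regard to case. On log2(TPM + 1), limma 3.58.1 in R 4.3.3 fitted all 9 libraries with a trend of variance on level and 6 residual degrees of freedom, and the contrast was two-sided, Benjamini-Hochberg adjusted and called below 0.05.

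The comparison, its members, the gene lists and the genes named were chosen with earlier results of these data known. Named were the called symbols with the 12 largest rises or the 12 largest falls among those with a mean of at least 5 TPM in both lines whose groups did not overlap, the 6 on each side with a mean under 1 TPM in the other line, and members of the lists, preferring those whose calls held in the alternatives. Genes without list or rank were chosen after their values were seen.

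Alternatives were median-ratio and quantile scaling, other pseudocounts and filters, no trend, a fit of the 6 libraries, the replicate number as a block, the highest row per symbol and each library left out. Joining 10679 rows without a symbol was chosen after seeing the data. Such a row joined a symbol through an equal description or, where it had no description, through a shared assembly component. An assembly component is the part of the row identifier before the gene number. Some genes of the lists count in their totals but are not reported here. No genome or sequence was used.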

Additional observations from a re-analysis of the deposited data

How the results depend on the processing

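Of the 174 called genes among the 185 named, 161 kept their direction and their call in every alternative in which they were tested. With a filter of 5 TPM, only 176 of the 185 were tested. List members were named with a preference for calls that held, so this share does not describe called symbols at large. Over all symbols, the share of the 3289 calls kept on leaving out 1 library ran from 67.5% (P. vachelli 3) to 83.1% (hybrid 3). The number of rows called was 15388 and fell to 7735, of 15605 tested, with a filter of 5 TPM, since fewer rows are then tested. Leaving out 1 library gave 11164 to 14407 called rows and 2274 to 3074 called symbols. With the replicate number as a block, which the labels share across lines but which did not pair the libraries (correlations of deviations 0.00789, 0.0515 and -0.0245), 14006 rows and 3011 symbols were called. Median-ratio scaling called 3320 symbols, 50.1% of them higher, against 44.4%. Reversed were MT-ND2 (9.97), MT-CYB (10.9), MT-ATP6 (11.8) and MT-CO2 (13.3) with the highest row of a symbol, since that row is a form of 1 species, and APOB with unnamed rows joined (-0.55), where the cause was not tested. Summing named and unnamed rows called 3228 symbols, 2706 of them shared with the 3289 whatever their direction. Of the 3289, 110 changed sign. The unknown depth limits what can be said of rows near 1 TPM.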

Other observations

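Single rows of a symbol did not always move together. Of the symbols with more than 1 row, 194 had a row called higher and a row called lower in the hybrid, and 99 of these were called after summing. Rows without a symbol were called more often than rows with one, at 32.0% against 25.8%.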
